A study of Mus musculus with 12 samples.

Results

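Cytosolic ribosomal proteins are the protein subunits of the ribosomes that translate mRNA outside mitochondria. Here they are the 80 protein-coding genes of 22557 in the deposited table whose symbol is Rpl or Rps with a number, or Rpsa, Rplp0, Rplp1 or Rplp2, leaving out the Rps6k kinases. Of these, 48 belong to the large subunit and 32 to the small subunit. The filter on low values kept genes that reached 10 in 3 or more libraries, and all 80 passed it, among 17380 genes in all.

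RNA of whole liver was sequenced from 12 female mice of matched age, with 3 mice in each of 4 groups. WT_no_tumor was wild type (WT) with no tumour, KO_no_tumor carried a knockout (KO) of Mtdh with no tumour, and WT_tumor and KO_tumor were the same genotypes bearing a Py8119 mammary tumour allograft. Mtdh encodes metadherin, a protein studied in tumour growth, and Py8119 cells are an established mammary tumour line of the mouse. For strain, age and the way the knockout was made, the labels give no more than this. All cells of the liver entered the RNA, so fewer cells of a type and less RNA per cell cannot be told apart.

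A ribosome carries ribosomal RNA and a single copy of nearly every ribosomal protein, so the genes are known for being expressed together. Their mRNAs begin with a run of pyrimidines, the 5′ terminal oligopyrimidine (TOP) motif, through which mTOR signalling sets their translation. Hepatocytes make large amounts of plasma proteins and are rich in ribosomes.

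Values are reads divided by a size factor of each library, called normalised reads below. Mtdh lay at 3954 to 5702 normalised reads in the 6 WT libraries and at 323 to 1063 in the 6 KO libraries, the highest of these being KO_tumor replicate 1. That library also had the lowest estimated depth, 12700000 reads against 25700000 to 43000000, and 14899 genes above 0 against 17772 to 20365. It correlated least with the rest (mean 0.831, other libraries 0.887 to 0.926, across genes). In KO_no_tumor replicate 3 protein-coding genes held 83.7% of the signal, below the 92.2% to 95.7% of the rest. Fold changes and medians that rest on KO_tumor are therefore given with and without replicate 1.

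The sequence at the start of the transcript was read for 60 of the 80 genes, those with a window in the RefSeq promoter table of build GRCm38.p6, from 250 bases before to 50 bases after each annotated start. A run of at least 5 C or T bases covered the start in 20 of the 60 (33.3%) and in 11.8% of all 27025 genes with a window. A run of at least 8 did so in 17 (28.3%) against 4.59%. A run of any length over the start, a single base included, that began with C within 5 bases of it was found in 14 (23.3%) against 19.5%. These counts of runs depend on the exact base annotated as the start. The ETS type motif CCGGAAG, on either strand anywhere in the window, was held by 25 of the 60 (41.7%) against 9.93% of all genes, and the YY1 type motif ATGGCG by 19 (31.7%) against 10.2%. The SP type motif GGGGCGGGG was held by 5 (8.33%) against 12.9%, and TATAAA by 7 (11.7%) against 15.7%. A match describes letters in the window and no binding.

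The 30 bases around the start, 15 on either side, are shown for 6 members with such a run and 4 without, because members with the highest and lowest differences between groups occur among both. Capitals mark the pyrimidine run that covers the start, and the first base of the transcript is the sixteenth letter. Rpl7a lies on the plus strand at chr2:26910792-26910821, Rpl15 on the minus strand at chr14:18270972-18271001, Rps10 on the minus strand at chr17:27635230-27635259, Rplp2 on the plus strand at chr7:141447636-141447665, Rps6 on the minus strand at chr4:86857353-86857382 and Rps21 on the plus strand at chr2:180257364-180257393. Those without such a run are Rps13 on the minus strand at chr7:116334176-116334205, Rpl10 on the plus strand at chrX:74270801-74270830, Rpl22l1 on the plus strand at chr3:28805493-28805522 and Rps27l on the plus strand at chr9:66946071-66946100. All are in GRCm38.p6.
Rpl7a: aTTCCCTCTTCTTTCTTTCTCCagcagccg
Rpl15: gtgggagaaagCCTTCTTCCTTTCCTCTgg
Rps10: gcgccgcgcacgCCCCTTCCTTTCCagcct
Rplp2: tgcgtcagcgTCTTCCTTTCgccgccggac
Rps6: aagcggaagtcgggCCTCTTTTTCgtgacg
Rps21: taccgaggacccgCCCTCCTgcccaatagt
Rps13: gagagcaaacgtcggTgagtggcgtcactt
Rpl10: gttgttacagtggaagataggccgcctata
Rpl22l1: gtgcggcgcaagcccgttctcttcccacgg
Rps27l: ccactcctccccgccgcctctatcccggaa
The run was 21 bases long in Rpl7a, 17 in Rpl15, 13 in Rps10, 10 in Rplp2 and in Rps6, and 7 in Rps21. It was 1 base long in Rps13, and none covered the annotated start in Rpl10, Rpl22l1 and Rps27l. These classes depend on the exact base annotated as the start: in Rpl22l1 a stretch of C and T begins just after it.

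The 80 genes together took a small and variable share of the signal. Their share of all normalised reads was 0.228%, 0.233% and 0.27% in WT_no_tumor and 0.236%, 0.29% and 0.26% in KO_no_tumor. It was 0.264%, 0.429% and 0.293% in WT_tumor and 0.555%, 0.374% and 0.44% in KO_tumor, in the order of the replicates. The KO_tumor group averaged 0.456% ± 0.0916 (SD, n = 3) against 0.329% ± 0.0881 in WT_tumor, 0.262% ± 0.0271 in KO_no_tumor and 0.244% ± 0.0229 in WT_no_tumor. The groups with and without tumour did not overlap in KO livers, whereas WT_tumor replicate 2 lay above the lowest KO_tumor library. The summed level in KO_tumor was 1.66 times that of KO_no_tumor and 1.45 times that of WT_tumor, or 1.41 and 1.23 times without KO_tumor replicate 1.

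Levels per kilobase of transcript spanned a wide range within the family. Each level rests on a single chosen transcript of the gene, 345 to 5130 bases long with a median of 767.5. How far the range depends on that choice was not tested. Rpl13, a large-subunit protein, was the highest at 11906 normalised reads per kb over all libraries, followed by Rps3a1 at 4612, Rpl10 at 3901, Rpl26 at 3723 and Rps7 at 3711. The median member stood at 977 normalised reads per kb, and the lowest were Rpl28 at 112, Rpl12 at 71.0 and Rps27 at 32.3. Rps27 had between 0 and 42 normalised reads in every library, and its transcript is nearly identical to that of the retrogene Rps27rt, which had 52.2 to 255. In all, 44 members had under 50% of the 50-base windows of their chosen transcript to themselves, and 16 had under 20%. Rps27 had the fewest, with 1.35% of windows found in no other gene's transcripts. The sources used here do not say how reads shared between such copies were counted, so levels of members with many copies are uncertain. Across members the level per kb and the unique share had a Spearman rho of -0.27 (n = 80 genes, which share the same 12 libraries).

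**Figure D1:**
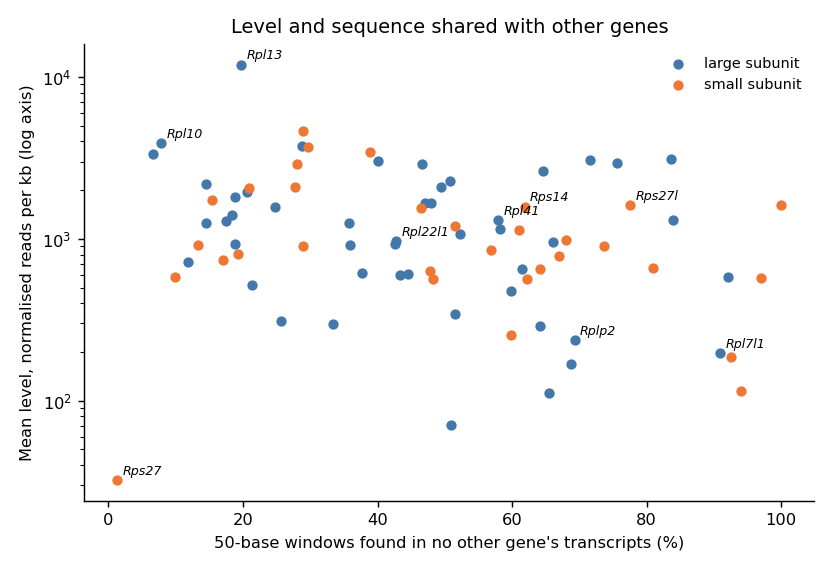
Each point is 1 of the 80 genes: the x axis gives the percent of its 50-base windows found in no other gene's transcripts, and the y axis its mean level over 12 libraries in normalised reads per kb on a log axis. Rps27, at 1.35% unique windows, is the lowest point, and Rpl13, at 11906 normalised reads per kb, is the highest.

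The libraries differed in the level of the whole family. Each gene's log2(value + 1) was set against its own mean over the 12 libraries, and the median over the 80 genes taken. It was -0.41, -0.39 and -0.29 in WT_no_tumor, -0.50, -0.10 and -0.05 in KO_no_tumor, and -0.17, 0.31 and -0.21 in WT_tumor. It was 1.12, 0.32 and 0.59 in KO_tumor. Only WT_tumor replicate 2 among the 9 other libraries lay above 0, and it lay just below KO_tumor replicate 2. KO_tumor replicate 1 was the highest of the 12 libraries in 60 of 80 genes, while the lowest was most often KO_no_tumor replicate 1 (24 genes) or WT_no_tumor replicate 2 (20 genes). The 3 KO_tumor libraries stood above all 9 others in 18 members, as did 1.75% of tested genes. The 3 KO_tumor libraries together with WT_tumor replicate 2 stood above the other 8 in 42 members, as did 1.69% of tested genes. These are the libraries whose medians over the same members lay above 0, so this count describes the pattern and does not test it.

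**Figure D2:**
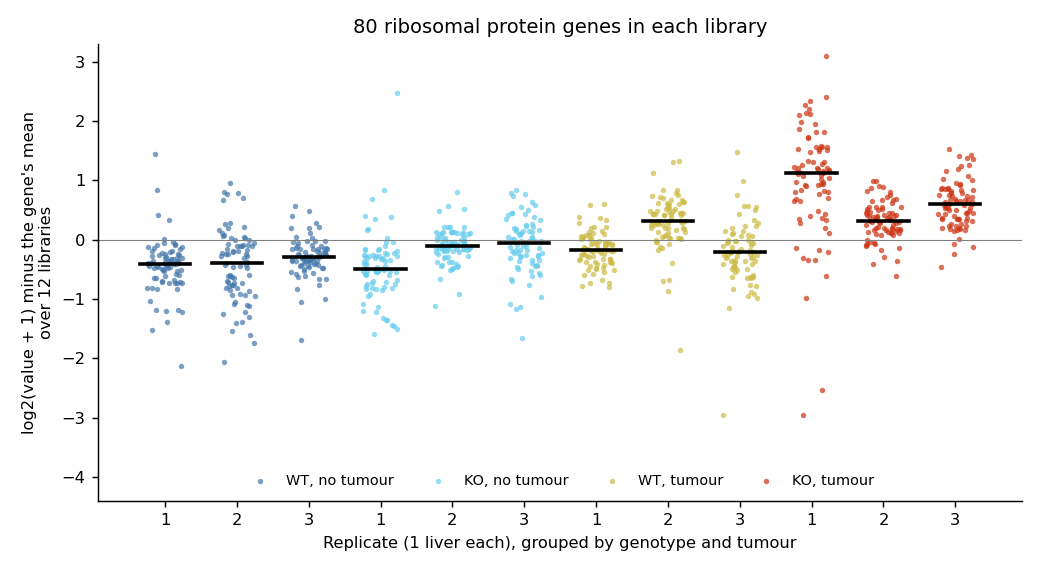
Each point is 1 of 80 ribosomal protein genes in 1 library, as its log2(value + 1) minus its mean over the 12 libraries, with libraries grouped by genotype and tumour on the x axis, and black bars are medians. The medians of the 3 KO_tumor libraries are 1.12, 0.32 and 0.59, and that of WT_tumor replicate 2 is 0.31.

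Tumour-bearing KO livers were compared with tumour-free KO livers to ask how the family differs with the tumour where Mtdh is lost. Of 80 members, 74 had a positive log2 fold change, against 45.7% of all tested genes, with a median of 0.89 against -0.08 over all tested genes. No member passed an adjusted p of 0.05 in limma, and nor did any other gene (0%). The lowest adjusted p of a member was 0.275. At an unadjusted limma p under 0.05, 53 members were higher and 1 lower, against 5.13% of tested genes higher. The KO_tumor values lay above all KO_no_tumor values in 50 members, as did 7.34% of tested genes, and below them in 2, as did 9.48%. Without KO_tumor replicate 1 the median was 0.63 against 0.04 over all tested genes, 76 members were positive (53.1% of tested genes), 41 were higher at an unadjusted p under 0.05 (3.27% of tested genes), and 53 did not overlap upward (12.4% of tested genes). The median over the large subunit was 0.92 and over the small subunit 0.86, or 0.71 and 0.58 without that library.

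Among large-subunit proteins Rplp2, a part of the acidic stalk that recruits elongation factors, had the highest fold change. It had 83.6, 132 and 96.0 normalised reads in KO_no_tumor and 1223, 228 and 365 in KO_tumor, so that all 3 tumour-bearing livers lay above the others. The log2 fold change was 2.18 ± 0.58 (SE, limma adjusted p = 0.324), and 1.49 ± 0.49 without KO_tumor replicate 1. Rplp0, which anchors the stalk, had 778, 998 and 1603 normalised reads in KO_no_tumor and 4960, 1550 and 1765 in KO_tumor. These groups overlapped, and the log2 fold change of Rplp0 was 1.15 ± 0.37, or 0.62 ± 0.28 without KO_tumor replicate 1. Rplp1, the partner of Rplp2 in the stalk, went the other way, with 1898, 912 and 1563 normalised reads in KO_no_tumor and 1561, 954 and 1226 in KO_tumor. Its groups overlapped, at a log2 fold change of -0.19 ± 0.30, or -0.37 ± 0.32 without KO_tumor replicate 1.

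Rpl10, a late-joining protein near the catalytic centre, had 1649, 2626 and 1846 normalised reads in KO_no_tumor and 7797, 3800 and 5046 in KO_tumor, without overlap. Its log2 fold change was 1.41 ± 0.30 (limma adjusted p = 0.276), and 1.13 ± 0.29 without KO_tumor replicate 1. Only 7.87% of its windows are unique, the rest being shared with pseudogenes. Rpl4, a core protein lining the exit tunnel, has 83.5% unique windows and had 3080, 4393 and 3761 normalised reads in KO_no_tumor against 8596, 5483 and 7217 in KO_tumor. The groups of Rpl4 did not overlap, at a log2 fold change of 0.91 ± 0.23, or 0.76 ± 0.25 without KO_tumor replicate 1.

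In the small subunit the highest were Rps13, Rps21 and Rps10. Rps13 had 150, 276 and 251 normalised reads in KO_no_tumor and 1697, 587 and 770 in KO_tumor. Its log2 fold change was 2.06 ± 0.43 (limma adjusted p = 0.275), and 1.62 ± 0.40 without KO_tumor replicate 1. Rps21 had 153, 294 and 125 normalised reads in KO_no_tumor and 1221, 546 and 579 in KO_tumor, a log2 fold change of 2.03 ± 0.42, or 1.65 ± 0.40 without that library. Rps10 had 143, 425 and 272 normalised reads in KO_no_tumor and 1573, 689 and 977 in KO_tumor, a log2 fold change of 1.997 ± 0.53, or 1.68 ± 0.56 without KO_tumor replicate 1. In these 3 genes every KO_tumor library lay above every KO_no_tumor library, and replicate 1 was the highest.

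Rps6, the small-subunit protein phosphorylated by the S6 kinases, had 863, 1250 and 1553 normalised reads in KO_no_tumor and 3194, 2047 and 2193 in KO_tumor. The groups did not overlap, and the log2 fold change was 1.03 ± 0.28 (limma adjusted p = 0.324), or 0.83 ± 0.29 without KO_tumor replicate 1. Rpsa, a small-subunit protein also known as a laminin receptor, had a log2 fold change of 1.13 ± 0.32, and 0.68 ± 0.25 without KO_tumor replicate 1, which held 7632 normalised reads against 2710 and 3291 in the others of its group. Rps19, known for its mutation in Diamond-Blackfan anaemia, had 518, 308 and 746 normalised reads in KO_no_tumor and 1943, 620 and 727 in KO_tumor. These groups of Rps19 overlapped, and its log2 fold change of 0.96 ± 0.41 became 0.45 ± 0.34 without KO_tumor replicate 1.

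A few members had the opposite sign or a smaller difference. Rps14, a protein of the small-subunit platform, had 1203, 870 and 1244 normalised reads in KO_no_tumor and 592, 680 and 838 in KO_tumor. All KO_tumor values of Rps14 lay below the KO_no_tumor values, at a log2 fold change of -0.65 ± 0.29 (limma adjusted p = 0.384), or -0.53 ± 0.32 without KO_tumor replicate 1. Rpl13 had 13640, 7609 and 13250 normalised reads in KO_no_tumor and 7542, 6949 and 6189 in KO_tumor, also without overlap, at -0.69 ± 0.46, or -0.76 ± 0.52 without that library. Rpl5, which with Rpl11 binds the p53 regulator Mdm2, had 701, 682 and 573 normalised reads in KO_no_tumor and 107, 982 and 728 in KO_tumor. The sign of Rpl5 rested on KO_tumor replicate 1: its log2 fold change was -0.61 ± 0.62 with that library and 0.38 ± 0.35 without it. Rps27a, which is made as a fusion with ubiquitin, had a log2 fold change of 0.42 ± 0.22, or 0.24 ± 0.22 without KO_tumor replicate 1. Rpl41, among the shortest proteins of the family, had one of 0.45 ± 0.36, or 0.06 ± 0.32 without KO_tumor replicate 1.

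**Figure D3:**
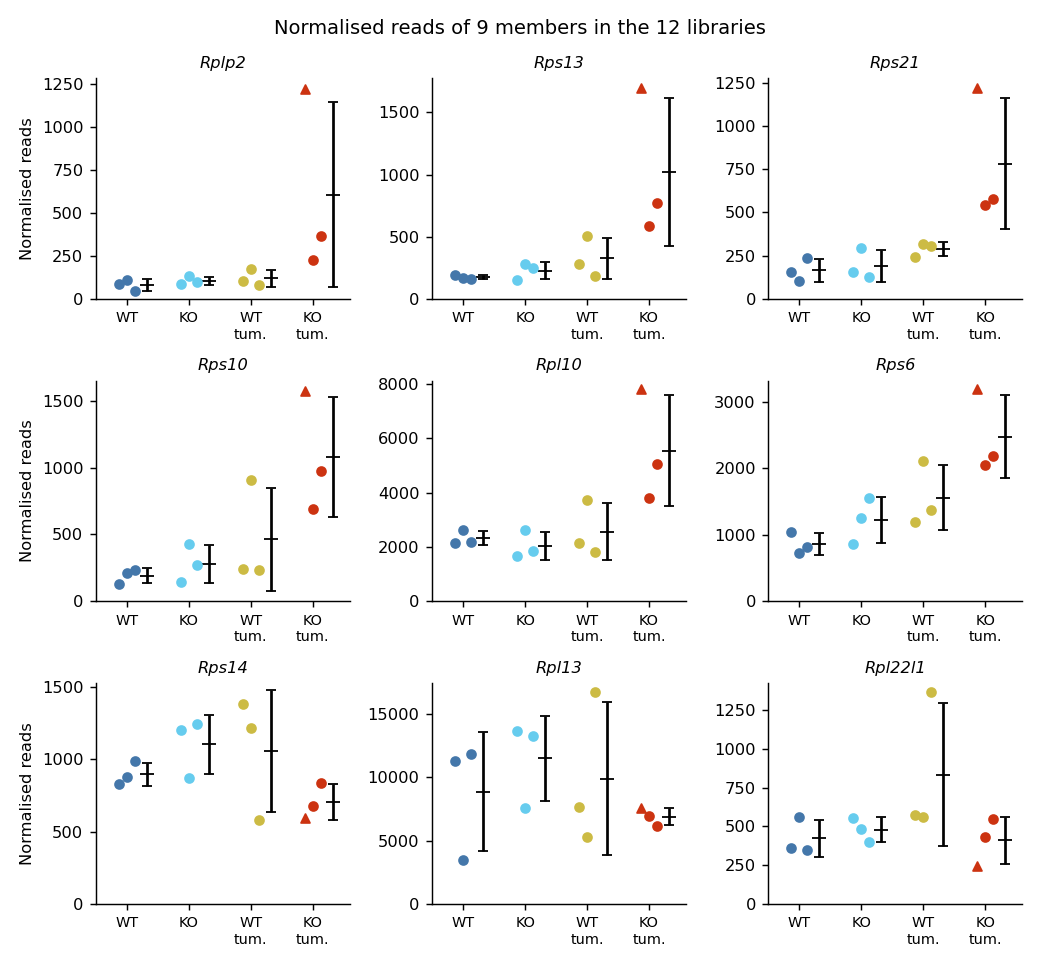
Normalised reads of 9 members in each of the 12 libraries, on linear axes from 0, with 1 point per liver, triangles for KO_tumor replicate 1, and black bars for the group mean and SD (n = 3); tum. stands for tumour-bearing. In the upper 6 panels all KO_tumor points lie above the KO_no_tumor points, and in Rps14 and Rpl13 all lie below them.

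**Figure D4:**
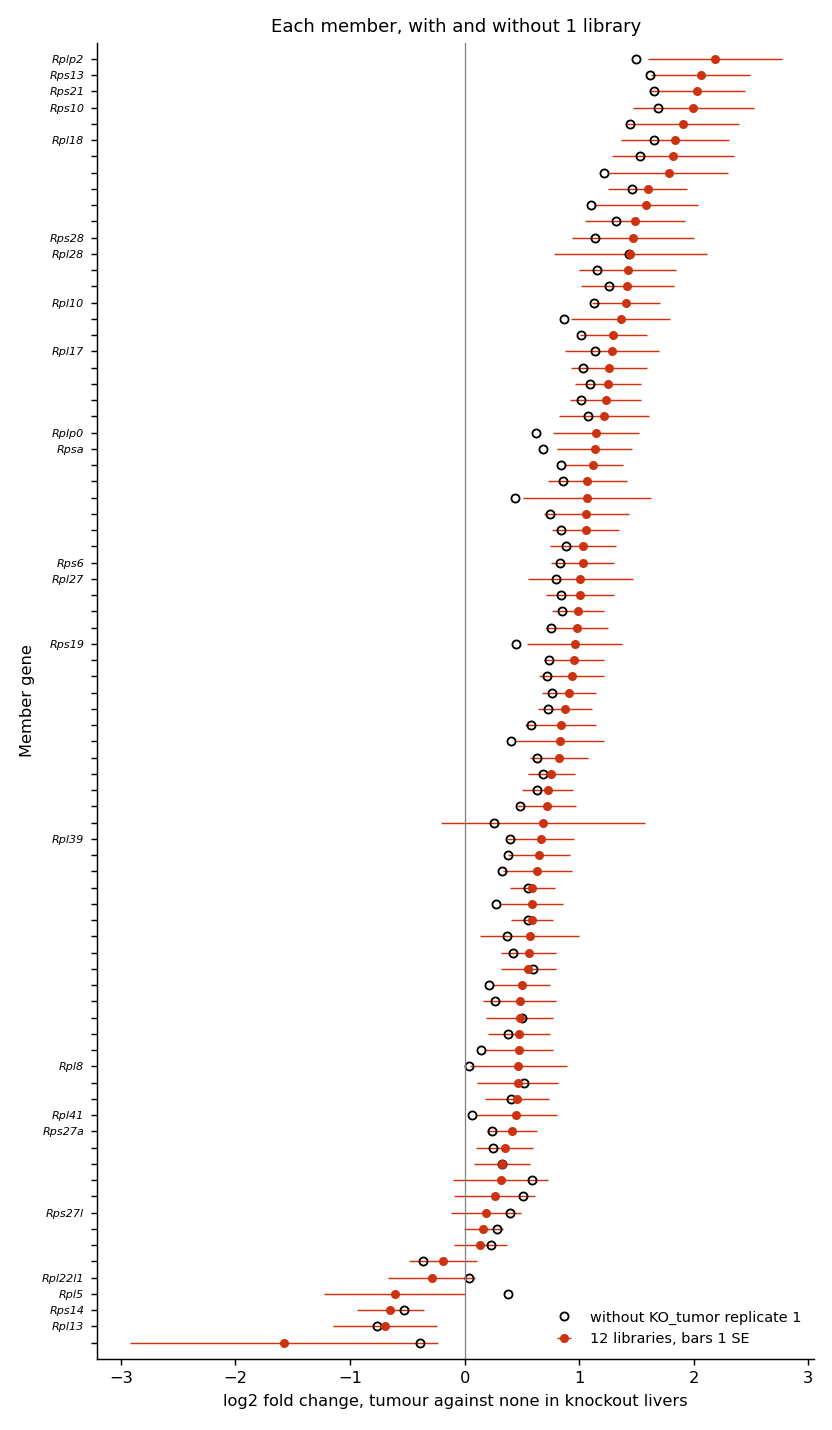
The log2 fold change of tumour against none in KO livers is shown for each of the 80 genes, with filled points and bars of 1 SE for all 12 libraries and open points for the fit without KO_tumor replicate 1, with names beside some of the members that the text describes. Of the filled points 74 lie above 0, of the open points 76, and Rpl5 and Rpl22l1 change side, Rpl22l1 from -0.29 to 0.04.

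KO livers were set against WT livers in tumour-bearing mice. In 73 of 80 members the log2 fold change was positive, against 42.8% of all tested genes, with a median of 0.69 against -0.12. By limma 0 members were called at an adjusted p of 0.05, against 0.023% of tested genes, and the lowest adjusted p was 0.136. At an unadjusted p under 0.05, 39 members were higher and 1 lower (6.31% of tested genes higher), and the groups did not overlap upward in 23 members (8.11% of tested genes). Without KO_tumor replicate 1 the median was 0.47 against -0.00, and 17 members were higher at an unadjusted p under 0.05 (4.46% of tested genes). Both groups hold a library that stood apart for this family, KO_tumor replicate 1 and WT_tumor replicate 2. The median deviation of the members in WT_tumor replicate 2 was 0.31, against -0.17 and -0.21 in the others of its group. Leaving it out therefore raises this difference by construction, so calls made without it are no separate support. Leaving out WT_tumor replicate 2 gave a median of 0.84, and 5 members were then called higher, as 211 genes were in either direction (1.23%). They were Rpl27 at a log2 fold change of 2.06 ± 0.39 (limma adjusted p = 0.0275), Rps13 at 1.99 ± 0.44, Rpl10 at 1.43 ± 0.28, Rpl7a at 1.42 ± 0.26 and Rps25 at 1.10 ± 0.24. Leaving out both libraries, a choice made after the data were seen, left 1, Rpl7a, at 1.19 ± 0.24 (limma adjusted p = 0.0421). In that fit 134 of all tested genes were called (0.785%).

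With all 12 libraries Rplp2, at 101, 172 and 82.3 normalised reads in WT_tumor, had a log2 fold change of 2.04 ± 0.58 (limma adjusted p = 0.19) between KO and WT tumour-bearing livers, and 1.35 ± 0.49 without KO_tumor replicate 1. Rps28, which sits near the mRNA exit of the small subunit, had 111, 261 and 107 normalised reads in WT_tumor and 757, 381 and 373 in KO_tumor, without overlap. The log2 fold change of Rps28 was 1.70 ± 0.54, or 1.36 ± 0.55 without that library. Rps13 had 281, 508 and 188 normalised reads in WT_tumor, all below its KO_tumor values, at 1.61 ± 0.43 (limma adjusted p = 0.16), or 1.16 ± 0.40 without KO_tumor replicate 1. Rpl22l1, a paralog of Rpl22 that can take its place in the ribosome, had 572, 559 and 1367 normalised reads in WT_tumor and 247, 432 and 549 in KO_tumor. Its groups did not overlap in the lower direction, at a log2 fold change of -0.96 ± 0.38 (limma adjusted p = 0.278), and -0.64 ± 0.37 without KO_tumor replicate 1. Rpl22 itself had 1216, 1467 and 1165 normalised reads in WT_tumor and 2522, 1267 and 1533 in KO_tumor, which overlapped. Rps14 stood at -0.51 ± 0.29 and Rpl5 at -0.61 ± 0.62, or at -0.39 ± 0.32 and 0.38 ± 0.35 without KO_tumor replicate 1.

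In WT livers the tumour was compared with none. The log2 fold change was positive for 69 of 80 members (50.4% of all tested genes) with a median of 0.41, against 0.00 over all tested genes. By limma 0 members were called, against 0.679% of tested genes. At an unadjusted p under 0.05, 11 members were higher and 0 lower (4.49% of tested genes higher), and the groups did not overlap upward in 17 (9.46% of tested genes). KO_tumor replicate 1 enters the spread that all groups share in the fit. The same counts by p without it were 18 and 0 (1154 of 17292 tested genes higher). Without WT_tumor replicate 2 the median was 0.19. Rpl17 had the highest fold change, with 122, 110 and 208 normalised reads in WT_no_tumor and 341, 466 and 174 in WT_tumor, a log2 fold change of 1.10 ± 0.41 (limma adjusted p = 0.4) with overlapping groups. Rps10 had 128, 212 and 231 normalised reads in WT_no_tumor and 244, 910 and 235 in WT_tumor, so that its fold change of 1.02 ± 0.53 rested mainly on replicate 2. Rpl22l1 stood at 0.88 ± 0.38 with its highest value, 1367, in WT_tumor replicate 3. Rps27l, a paralog of Rps27 known as a p53 target, had the lowest fold change among members with a mean of at least 50, at -0.51 ± 0.31, with overlapping groups.

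Without a tumour the genotypes differed least. The log2 fold change of KO against WT was positive for 58 of 80 members (49% of all tested genes), with a median of 0.19 against -0.01. By limma 0 members were called (0.00575% of tested genes, which is Mtdh alone). At an unadjusted p under 0.05, 3 members were higher and 0 lower (0.978% of tested genes higher), and groups did not overlap upward in 6 (3.56% of tested genes). The same counts by p without KO_tumor replicate 1 were 3 and 1 (307 and 346 of 17292 tested genes). Rpl17 stood at 1.18 ± 0.41 (limma adjusted p = 1), with 214, 322 and 473 normalised reads in KO_no_tumor, all above WT_no_tumor. Rpl27 stood at 1.07 ± 0.46 and Rpl8 at 0.74 ± 0.42, both with overlapping groups. At the low end were Rpl28 at -0.60 ± 0.67, Rpl39 at -0.60 ± 0.29 and Rpl18 at -0.53 ± 0.47. None of these passed the adjusted threshold. Rpl30, which lies on chromosome 15 at 34440651 to 34443786 (build mm39), 295 kb beyond the end of Mtdh, had 233, 514 and 625 normalised reads in WT_no_tumor and 201, 596 and 398 in KO_no_tumor, which overlap.

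The genotype by tumour interaction tests whether the tumour comparison differed between genotypes. It was positive for 69 of 80 members (45% of all tested genes) with a median of 0.52, and 0 members were called by limma (0% of tested genes). At an unadjusted p under 0.05, 8 were higher and 1 lower (1.96% of tested genes higher). Without KO_tumor replicate 1 the median interaction was 0.25, and 4 members were higher at that level (1.9% of tested genes). The larger median in KO than in WT livers is therefore not shown to be a difference between genotypes for any single member.

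Members differed in how evenly they were held across mice of a group. The median residual SD was 0.42 on the log2 scale, against 0.36 for 7685 other genes within the same range of mean level and 0.59 for all tested genes. All residual SDs here come from the fit of 12 libraries, which includes KO_tumor replicate 1, the highest library in 60 members. How they differ without that library was not tested, so they do not show the spread between mice alone. Rps7, at 2420 to 3675 normalised reads over all 12 libraries, had the smallest residual SD, 0.15, followed by Rpl15 at 0.16 and Rpl36a at 0.18. Among members with a mean of at least 50, Rpl12 at 1.23, Rpl5 at 0.96 and Rpl28 at 0.89 had the largest. In Rpl5, KO_tumor replicate 1 held 107 normalised reads against 982 and 728 in the others of its group. Rpl15 and Rpl36a, with small residual SDs, had KO_tumor values above all KO_no_tumor values. Their log2 fold changes were 0.59 ± 0.18 and 0.59 ± 0.19 (limma adjusted p = 0.327 and 0.329). These were 0.56 ± 0.20 and 0.55 ± 0.21 without KO_tumor replicate 1.

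Features of the transcript were set beside the differences in tumour-bearing KO livers. The 20 members with a pyrimidine run of at least 5 over the start had a median log2 fold change of 0.96, the 40 with a window but no such run had 0.70, and the 20 without a window had 0.93. The same medians without KO_tumor replicate 1 were 0.74, 0.57 and 0.71. The run classes rest on the annotated start base, so they do not sort members into those with and without a TOP motif. Members with at least 50% unique windows (36) had a median of 0.72 and the others (44) 1.01, or 0.47 and 0.77 without that library. In the genes outside the family, short transcripts also had higher values: the median log2 fold change of tumour against none in KO was 0.45 for 163 genes with transcripts of up to 600 bases, 0.21 from 600 to 1000, 0.12 from 1000 to 2000, 0.01 from 2000 to 4000 and -0.14 above that. In the first 3 of these classes the members stood at 0.83 (26 genes), 0.86 (34 genes) and 1.02 (16 genes). Without KO_tumor replicate 1 the members stood at 0.61, 0.59 and 0.74, and the other genes at 0.43, 0.20 and 0.14. Transcript length thus moved with the comparison outside the family, and its part in the members' result was not tested. Within the family, fold change and transcript length had a Spearman rho of -0.003 (n = 80 genes, which share libraries).

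**Figure D5:**
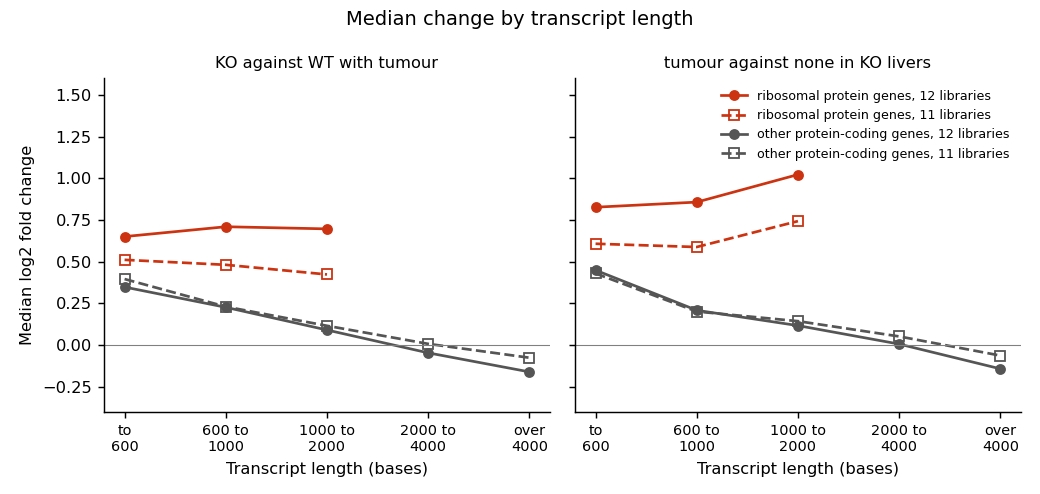
Median log2 fold change by transcript length class (bases, x axis) for the ribosomal protein genes (red) and other protein-coding genes (grey), with solid lines for 12 libraries and dashed lines for 11, without KO_tumor replicate 1; classes with under 5 genes are left out. The red points lie above the grey points in each class shown, and the grey medians go from 0.45 in the shortest class to -0.14 in the longest for tumour against none in KO.

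Within the bounds of 28 members, on the same strand, lie 54 small nucleolar RNA (snoRNA) genes. These RNAs guide modification of ribosomal RNA and are mostly released from introns of their host genes. Of the 46 that passed the filter, 43 had a negative log2 fold change for tumour against none in KO, with a median of -1.01. Of all 17380 tested genes 9434 were negative. Of the 28 host genes 27 were positive, with a median of 0.87. By limma 0 of the 46 were called, with 16 lower and 1 higher at an unadjusted p under 0.05 (7.58% and 5.13% of tested genes). Without KO_tumor replicate 1 the median of the 46 was -0.85, with 5 lower and 1 higher (3.31% and 3.27% of tested genes), and all 28 host genes were positive with a median of 0.69. All small nucleolar RNA genes of the table, not only these, took 0.87%, 0.562% and 4.84% of the signal in KO_no_tumor. They took 0.259%, 0.443% and 0.597% in KO_tumor, in the order of the replicates. KO_tumor replicate 1 was the lowest and KO_no_tumor replicate 3 the highest of the 12 libraries.

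Genes of related function were set beside the family. The 78 mitochondrial ribosomal proteins, subunits of the separate ribosome inside mitochondria, had a median of 0.33 for tumour against none in KO and 0.36 for KO against WT with tumour, with 0 called in either. Both were lower, at 0.21 and 0.26, without KO_tumor replicate 1. The 55 ribosome biogenesis factors, which make and assemble ribosomal RNA and subunits, had medians of 0.18 and 0.08, or 0.16 and 0.11 without that library. Their lowest limma p in the first of these comparisons belonged to Taf1d, a factor of RNA polymerase I, at -1.54 ± 0.46 (adjusted p = 0.324), and the next to Npm1, a nucleolar chaperone, at 0.71 ± 0.26 (adjusted p = 0.348). These were -1.29 ± 0.49 and 0.61 ± 0.28 without KO_tumor replicate 1. The 36 translation factors had medians of 0.24 and 0.13, which were 0.16 and 0.02 without KO_tumor replicate 1. Among them Eef1d, a subunit of the elongation factor 1 complex, stood at 1.47 ± 0.40 in KO livers, or 1.35 ± 0.42 without that library. The 23 other genes known for TOP mRNAs had medians of 0.45 and 0.38, which were 0.29 and 0.23 without it. Tpt1 stood at 0.88 ± 0.20 and Btf3 at 1.04 ± 0.26 in KO livers, or 0.71 ± 0.20 and 0.95 ± 0.28 without it. The 34 assembly chaperones, sensors and quality-control factors had medians of 0.09 and -0.02, which were 0.04 and 0.02 without it, so that the second changed sign. No gene of these lists was called.

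Nuclear genes of oxidative phosphorylation had another order of the comparisons. Their median over 60 genes was 0.78 for KO against WT with tumour and 0.33 for tumour against none in KO, but -0.22 for tumour against none in WT, where the median of the ribosomal proteins was 0.41. The first was 0.65 and the second 0.14 without KO_tumor replicate 1. By limma 0 of the 60 were called in each. At an unadjusted p under 0.05, 38 were higher and 0 lower for KO against WT with tumour (6.31% of tested genes higher), and 8 higher and 3 lower for tumour against none in KO (5.13% and 7.58%). For tumour against none in WT 0 were higher and 12 lower (4.49% and 4.18%). The higher counts in the first 2 of these were 35 and 3 without KO_tumor replicate 1 (4.46% and 3.27% of tested genes). Pseudogenes named for ribosomal proteins had a median of 0.46 over 25 tested genes for tumour against none in KO, and 0.07 over 24 without KO_tumor replicate 1. For KO against WT with tumour the medians were 0.59 and 0.35. There 1 pseudogene was called higher (limma adjusted p = 0.00528, or 0.0173 without that library). Of all tested genes 2 were called higher in that comparison, or 5 without that library.

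Ribosomal protein genes with other symbols gave values of the same order. Fau, the precursor of the small-subunit protein eS30, had 267, 300 and 313 normalised reads in KO_no_tumor and 1643, 437 and 740 in KO_tumor, a log2 fold change of 1.47 ± 0.41 (limma adjusted p = 0.324), or 0.96 ± 0.34 without KO_tumor replicate 1. Rack1, a scaffold on the small subunit, had 2252, 3122 and 3869 in KO_no_tumor and 7297, 3766 and 4123 in KO_tumor, a log2 fold change of 0.69 ± 0.28, or 0.39 ± 0.26 without KO_tumor replicate 1. The groups overlapped in Rack1 and not in Fau.

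Markers of the cells in the sample were read beside these results. The 12 hepatocyte markers were all present, with summed levels of 3296264 to 3656689 normalised reads in KO_no_tumor and 3206979 to 4871294 in KO_tumor. Endothelial markers had a positive log2 fold change in 10 of 10 for tumour against none in KO (summed level 8740 to 10244 against 12205 to 19492), and stellate and fibroblast markers in 9 of 11 (11380 to 13231 against 14524 to 19304). Neutrophil markers had one in 5 of 8 tested of 14, with a summed level of 117 to 167 in KO_no_tumor, 127 to 700 in KO_tumor and 1030 to 1547 in WT_tumor. Camp was at 0 in all KO livers and in all WT_no_tumor livers. Mammary tumour epithelium markers had one in 4 of 8 tested of 9 (3519 to 3981 against 3564 to 8749). Livers without a tumour thus held these markers too, as in WT_no_tumor (3615 to 4314), so the sum does not measure tumour cells. Leaving out KO_tumor replicate 1, endothelial markers were positive in 9 of 10, stellate and fibroblast markers in 7 of 11, neutrophil markers in 6 of 8 and mammary markers in 3 of 8. The median log2 fold change then went from 0.45 to 0.44 for endothelial markers, from 0.81 to 0.34 for stellate and fibroblast markers, from 0.36 to 1.39 for neutrophil markers and from 0.03 to -0.21 for mammary markers. The median deviation from each gene's mean was also taken over the B and plasma cell markers and the T and NK cell markers. It was highest of the 12 libraries in WT_tumor replicate 2, at 1.32 and 1.30. The part of all these cells in the result on ribosomal proteins was not tested.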

How the data were processed

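Per the labels' protocols, frozen livers were powdered and ribosomal RNA was removed from their total RNA before library preparation. The deposited values cover 22557 genes in each of 12 libraries. They are a normalized signal, reads that the authors divided by a library's size factor, which the deposited table's name records, and hold no logarithm. STAR 2.7.8a, Partek, DESeq2 and build mm39 are named in the submitters' processing notes; how shared or strand-specific reads were counted is not given in the sources used here. Of values up to 20 reads, 77.9% to 85.0% were whole multiples of 1 read within 0.01, so whole reads were not recovered and no count model was used.

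In R 4.3.3, limma 3.58.1 (eBayes with a trend) was run on log2(value + 1) of the 17380 genes that reached 10 in 3 or more libraries, in 1 fit of 4 groups of 3 with no covariate. Fold changes are on that scale, which understates changes of low genes. In each of 5 comparisons two-sided p-values had Benjamini-Hochberg adjustment over all tested genes, with a threshold of 0.05. The step between low values gave estimated depths of 12700000 to 43000000 reads. The replicates are different mice according to the labels. Before use, the fit was tested on simulated data for tumour against none in KO. It called 32% of the 50 genes given a log2 change of 1 and 76% of the 50 given 2. Of 17180 unchanged genes 8 were called. A count of 0 called members therefore does not show that they were unchanged.

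The 80 members and all gene lists were chosen with earlier results of these data known. Named members were those with the 3 highest and 3 lowest fold changes per comparison of a pair of groups and the 3 largest and smallest residual spreads (mean of at least 50), a fixed set of well-known members, and paralogs of other members by name. Rpl7a, Rps25 and Rpl30 were added after their values were seen, as was Rps3a1. A few genes are not reported here. Transcript lengths and 50-base windows came from GENCODE transcripts matched by Ensembl identifier for 80 of 80 members, and promoter windows from RefSeq (GRCm38.p6). Coordinates of genes are those of the deposited table (mm39), with the end taken as 1 base before its exclusive stop. Tools were Python 3.11.15, pandas 2.3.3, numpy 2.4.6 and matplotlib 3.10.9. Alternatives were a pseudocount of 10, no filter, rescaling to the same total or protein-coding total, quantile normalization, 6 libraries fitted alone, robust eBayes, a replicate block and each library left out. Protein sequences were not used here.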

Additional observations from a re-analysis of the deposited data

How the results depend on the processing

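The median log2 fold change of the 80 members kept its sign in every alternative run and moved by less than 0.28, the SD of the library medians within groups. That SD is a loose limit. It includes KO_tumor replicate 1 and is larger than the whole median of 0.19 for KO against WT without tumour. Leaving out 1 library at a time gave medians of 0.63 to 1.13 for tumour against none in KO, 0.47 to 0.84 for KO against WT with tumour, 0.19 to 0.53 for tumour against none in WT, 0.10 to 0.28 for KO against WT without tumour and 0.25 to 0.69 for the interaction. It gave 0 to 5 called members for KO against WT with tumour, the 5 without WT_tumor replicate 2, and 0 in the other comparisons. Leaving out both KO_tumor replicate 1 and WT_tumor replicate 2, an alternative chosen after seeing the data, gave 1. All other alternatives called 0 members. For tumour against none in KO the count at an unadjusted limma p under 0.05 was 41 without KO_tumor replicate 1 and 60 without KO_no_tumor replicate 3, against 54.

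Rpl5 changed sign in both KO_tumor comparisons when KO_tumor replicate 1 was left out. Leaving out 1 library at a time gave Rpl5 -1.21 (without KO_tumor replicate 2) to 0.38 in each of these comparisons. For tumour against none in KO it was 0.38 without that library, 0.29 when KO_no_tumor replicate 3 was left out too and 0.38 when WT_tumor replicate 2 was. For KO against WT with tumour the values were 0.38, 0.38 and 0.00 (0.0033). Replicate numbers did not pair the mice: deviations of same-numbered libraries had mean correlations of 0.023, 0.008 and -0.003. With the replicate number as a block 0 members were called in each comparison, and 48 had an unadjusted p under 0.05 for tumour against none in KO. Depth was lowest in KO_tumor replicate 1, at 12700000 reads, and members with few unique windows have uncertain levels at any depth.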
